A study of Mus musculus with 2 samples.

Results

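The outer tissue of 1 ovary section from a young mouse was set against its inner tissue, across all genes. Beads of the section were gathered into square bins of 70 position units, and 1306 of 1835 bins with counts held at least 500 counts and were kept. Each kept bin was ranked by its straight-line distance from the centre, which was the median bin x and the median bin y. The 434 bins farthest from the centre made up the outer zone and the 436 nearest bins the inner zone, with 436 middle bins between them, out of 2190 kept bins in the whole series. Within the kept bins the zones were set by position alone, and no single gene's level took part. Total counts per bin decided which bins were kept, and so entered the centre and the limits. The rule itself was chosen with earlier results of these data known.

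The series is a Slide-seq study, in which a thin frozen tissue slice lies on an array of beads whose barcodes record position, of ovaries from C57BL6/J females. A young section came from a female aged 2 months and an old section from a female aged about 14 months, with 1 section of each age analysed here. The submitters placed 4 sections, cut at 10 µm from 2 females, on arrays for each age, chose planes that held several oocytes, and do not say which female gave which section. The young section is labelled replicate 3 and the old one replicate 1, no treatment or genetic change is named for either age, and the ages are not compared for their own sake.

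The ovary is covered by a single sheet of surface epithelium over an outer cortex, where most follicles lie, and a vessel-rich inner medulla. A follicle is an oocyte wrapped in granulosa cells that divide as it grows, with theca cells outside them that make androgen. After ovulation its remains become a corpus luteum, a gland that makes progesterone and that can fill much of the organ, and steroid-forming interstitial cells lie between these structures.

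With 1 section there are no biological replicates, so no test was made. Ratios are outer over inner CPM, the counts of a gene scaled to a zone total of 1000000, with an exact conditional binomial interval at 95% that covers counting error only. A gene was called higher or lower by size alone, at 1.5-fold, if it had at least 100 counts in both zones together. As a check on unevenness, each ratio was also taken in 4 quadrants around the centre, written as high or low x and high or low y. Quadrants are parts of 1 section and not replicates, and bins hold several cells of different types or part of one cell.

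The 2 zones had similar depth. Outer bins held 1640191 counts in all with a median of 2893 per bin, middle bins 1929633 with 3880, and inner bins 1525174 with 2941. Quadrants differed more, and low x, high y was the deepest, with a median of 4526 per outer and 4489 per inner bin. That quadrant held 642631 of the outer and 547356 of the inner counts, so it weighs most in whole-zone ratios. Thinned to 500 counts, the median number of genes per bin was 420 in outer, 417 in middle and 408 in inner bins, against 1786, 2202.5 and 1748.5 before thinning. The tissue was longer along y than along x, and 84.3% of outer bins lay farther from the centre along y, so the outer zone is mainly the 2 ends of the section and holds little of its long flanks. Of outer bins, 199 lay within 2 bins of the tissue outline, against 3 inner bins. Outer bins started at 17.1 bins from the centre and inner bins ended at 11.7. The oocyte list stood at 5301 CPM in the 50 outer bins nearest the limit and at 6198 CPM in the 50 middle bins just inside it, and the surface epithelium list at 168 and 231 CPM.

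**Figure D1:**
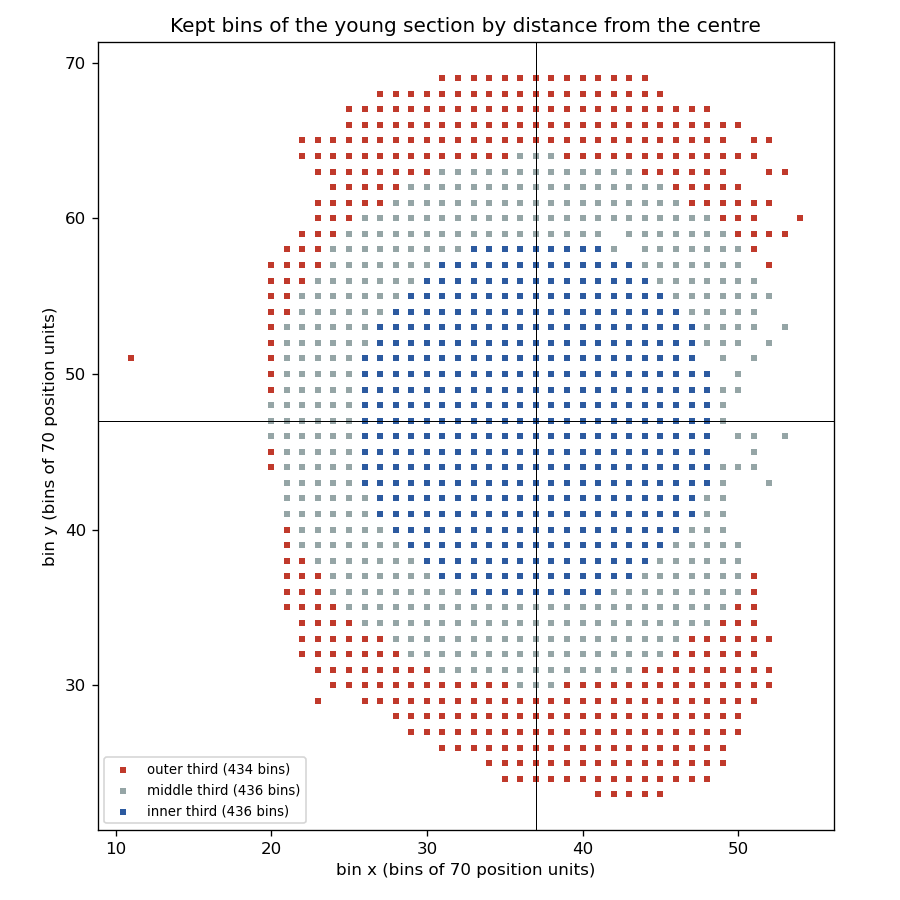
Map of the 1306 kept bins of the young section, with bin x and bin y in bins of 70 position units, coloured by zone, and lines through the centre that part the 4 quadrants. Outer bins gather at the high-y and low-y ends of the section, while much of both flanks belongs to the middle zone.

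Of 6182 genes with enough counts, 519 (8.4%) were at least 1.5-fold higher and 322 (5.21%) at least 1.5-fold lower in outer than in inner bins. With trimmed-mean scaling the split was 424 higher and 404 lower. The median ratio over all these genes was 1.04. Asking in addition for the same side of 1 in all 4 quadrants left 175 higher (2.83%) and 179 lower genes (2.9%). Many of the calls, above all of the higher ones, thus did not hold in every quadrant.

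Genes past 1.5-fold upward and higher in outer tissue of every quadrant were ranked by ratio, and the 15 highest are given here. Obox5, an oocyte homeobox gene, led with 60.6, 85.4, 45.1 and 58.6 CPM in outer bins of the quadrants of high x high y, high x low y, low x high y and low x low y, against 51.7, 12.1, 0 and 0 CPM in inner bins. Its ratio over whole zones was 3.96 (2.50 to 6.54), and the outer and inner levels nearly met in the high x, high y quadrant. Wfdc10, which encodes a small protein with a WAP domain, had a ratio of 3.83 (2.62 to 5.75). Bcl2l10, a BCL2 family member of oocytes, stood at 3.37 (2.31 to 5.06), and at 1.74 without the 5 bins richest in it. Next came Fgfbp3, a carrier of fibroblast growth factors, at 3.07, and Btg4, an adaptor for maternal mRNA decay, at 2.99. Birc5, which encodes the mitotic protein survivin, was at 2.72, and Ccnb2, a mitotic cyclin, at 2.40. The 15 highest also held Tmem184a at 2.92, Fam241b at 2.89, Dcaf12l1 at 2.56, Bbs4 at 2.53, Gdpd1 at 2.52, Fam220a at 2.42, Cst12 at 2.33 and the ubiquitin ligase gene Siah2 at 2.31.

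The 15 lowest were taken in the same way, among genes lower in every quadrant. Adh1, an alcohol dehydrogenase that oxidises retinol, had 360, 61.4, 159 and 109 CPM in outer bins of the 4 quadrants, in the same order, against 408, 615, 373 and 887 CPM in inner bins. Inner bins were higher in each quadrant, least clearly in the high x, high y one, and the ratio was 0.299 (0.259 to 0.345). Mme, which encodes the peptidase neprilysin, followed at 0.309 (0.246 to 0.385). Abhd2, a lipase that progesterone activates in human sperm, was at 0.333 and Star, which moves cholesterol to the inner mitochondrial membrane, at 0.378. The cholesterol exporter gene Abca1 was at 0.392. Lhcgr, the luteinising hormone receptor, stood at 0.432 and Prlr, the prolactin receptor, at 0.444. The remaining 8 of the 15 lowest were Cobll1 at 0.375, the caveola gene Cavin2 at 0.411, Tcaf1 at 0.412, Lpp at 0.425, Bpifb5 at 0.440, Rnf128 at 0.441, the aldehyde dehydrogenase gene Aldh1a7 at 0.450 and the focal adhesion gene Tns1 at 0.458.

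**Figure D2:**
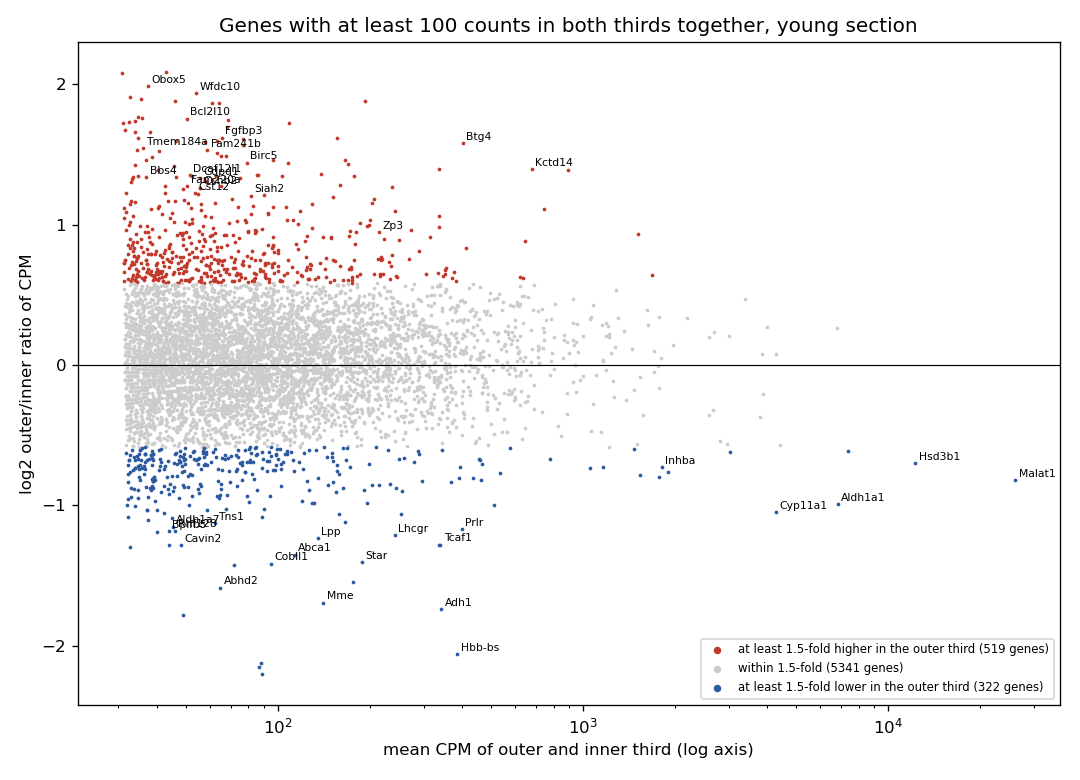
Log2 outer/inner ratio against mean CPM of both zones for the 6182 genes with at least 100 counts, coloured by call at 1.5-fold. Oocyte genes such as Obox5 and Btg4 stand at the top, and Malat1, Hsd3b1, Cyp11a1 and Aldh1a1 all lie below 0.

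Surface epithelium genes had the highest outer/inner ratio of any gene list with at least 100 counts, and theirs was the only such list above 1 in all 4 quadrants. The list of 12 genes, which hold keratins and uroplakins of the ovarian covering, stood at 189 CPM in outer, 122 in middle and 47.2 in inner bins, on 310 outer and 72 inner counts, a ratio of 4.0 (3.09 to 5.25). By quadrant it had 261, 64.0, 293 and 80.9 CPM in outer bins, against 68.0, 36.2, 49.3 and 28.7 CPM in inner bins. Both high-y quadrants were thus well above both low-y ones in the outer zone. No member reached 100 counts, so those given here were chosen after their values were seen. Lgals7, a galectin of stratified epithelia, had 59 outer and 6 inner counts, and Krt18 had 35 and 2. Epcam, an epithelial adhesion molecule, had 39 and 4, Upk1b 33 and 2, Krt19 29 and 5, and Krt8, a keratin of simple epithelia, 55 and 25. Lgr5, a stem cell marker, went the other way with 3 outer and 9 inner counts. Without the quadrant of low x, high y the list's ratio was 2.66 and that of Krt8 0.915.

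Depth from the tissue outline, a measure added after the data were seen, gave finer steps for these genes. The surface epithelium list stood at 346 CPM up to 1 bin from the outline, 273 up to 2, 159 up to 4, 106 up to 8 and 43.8 CPM deeper than that. Krt19 was also lower at each step inward, at 50.1, 26.8, 17.3, 5.39 and 0.695 CPM, on only 10, 10, 18, 11 and 1 counts. Krt8, the member with most counts, showed no such order, at 30.0, 26.8, 34.5, 33.8 and 11.1 CPM, and was low only in the deepest bins. The 529 bins left out for having under 500 counts, which held 63316 counts, had 632 CPM of this list (Poisson interval 451 to 860), above every one of these depth classes.

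Oocyte genes were higher in outer than in inner bins, and were concentrated in a few spots. Of 35 names listed, where H1foo is an older name of H1f8, 34 had any count, all with ratios from 1.65 to 4.03. Of them 22 had at least 100 counts, and each of the 22 was at least 1.5-fold higher, beside 8.4% of all genes. Their median ratio was 2.59, and that of all genes 1.04. The list had 5184 CPM in outer, 5347 in middle and 2090 in inner bins, a ratio of 2.48 (2.38 to 2.58). By quadrant, outer bins had 4159, 5308, 6739 and 3023 CPM, against 7158, 1278, 153 and 180 CPM in inner bins. Outer bins were therefore the lower ones in the high x, high y quadrant and the higher ones in the other 3, where the ratio ranged from 4.15 to 43.9. The 5 outer bins richest in oocyte counts held 46.1% of all those of the outer zone, and the 5 richest inner bins 61.8% of those of the inner zone.

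Grouping neighbouring bins in which oocyte counts numbered 10 or more and 1% or more of all counts, a step added after the data were seen, gave 14 oocyte groups. By the bin with most oocyte counts, 5 lay in the outer, 7 in the middle and 2 in the inner zone, and both inner ones lay in the high x, high y quadrant. Both inner peaks were 5 bins from the outline, as deep as the peak of the outer group with most oocyte counts. The 14 groups held 80.8% of the oocyte counts of outer bins and 80.8% of those of inner bins. Outside them the list still had 1159 CPM in outer bins, 1000 in middle and 427 in inner bins. Measured from the outline, oocyte genes had 3060 CPM up to 1 bin deep, 4781 up to 2, 7094 up to 4, 5792 up to 8 and 273 deeper than that. So the level peaked below the surface and was low only in the deepest bins. The list's ratio was 11.2 without the high x, high y quadrant, 1.32 without the low x, high y one, 16.6 with zones cut by depth from the outline, and 1.41 with the outer and inner 20% of bins.

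Individual oocyte genes followed the same spots to different degrees. Nlrp14, the member with most counts and a maternal-effect gene, had 920, 870, 1422 and 519 CPM in outer bins of the 4 quadrants, against 1668, 250, 31.1 and 14.4 CPM in inner bins, and a ratio of 2.16 (1.98 to 2.37). Btg4 had 689, 977, 523 and 296 CPM in outer bins, against 672, 142, 16.4 and 18 CPM in inner bins. Its outer level was the higher one in each quadrant, although by little in the first. Zp3, which encodes a sperm-binding protein of the egg coat, had 174, 216, 453 and 123 CPM in outer bins, against 531, 60.3, 5.48 and 18 CPM in inner bins. Its ratio was 1.93 (1.64 to 2.27) and turned to 0.778 with the outer and inner 20% of bins and to 0.762 without the low x, high y quadrant. The other highest members were Tcl1, a cofactor of the kinase AKT, at 3.69 (2.45 to 5.70) and Dppa3, a protector of maternal methylation, at 3.68 (3.02 to 4.51). The other lowest were the egg coat gene Zp1 at 1.65 (1.10 to 2.50) and the oogenesin Oog4 at 1.94 (1.34 to 2.85). Of genes picked after their values were seen, Gdf9 and Bmp15, secreted factors that act on granulosa cells, stood at 2.75 (2.12 to 3.61) and 2.55 (2.11 to 3.08), and H1f8, the oocyte linker histone, at 2.63 (2.30 to 3.02).

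The promoters of oocyte genes were also read, as a description of a list that was written to mark 1 cell type. FIGLA, an oocyte transcription factor that is needed for egg coat genes in the mouse, binds E-boxes, so the letters CAGGTG, on either strand, were searched in RefSeq promoters of build GRCm38.p6 that span 250 bases before to 50 after each start. A match was present in 15 of 30 promoters of the list, of 27 matched genes, and in 20.2% of 32851 promoters of all genes read. Promoters of 1 chromosome were left out of both. This motif was chosen after the list's values were known, and a match is a description and not a binding site. In Zp3 the match began 55 bases before the start, in Btg4 70 and in H1f8 66, and among the members without one was Bmp15. Of the list's egg coat genes, a match was found for Zp3 but not for Zp1 or Zp2. The 150 bases before each start are given 5′ to 3′ on the plus strand, with the match in capitals, for Zp3 at chr5:135979955-135980104, Btg4 at chr9:51115851-51116000 and H1f8 at chr6:115944781-115944930.
Zp3: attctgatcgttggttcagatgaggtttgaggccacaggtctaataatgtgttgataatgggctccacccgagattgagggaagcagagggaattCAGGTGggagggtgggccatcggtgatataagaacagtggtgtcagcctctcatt
Btg4: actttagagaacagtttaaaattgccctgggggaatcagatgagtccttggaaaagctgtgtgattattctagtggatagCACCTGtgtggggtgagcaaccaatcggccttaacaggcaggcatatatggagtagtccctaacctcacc
H1f8: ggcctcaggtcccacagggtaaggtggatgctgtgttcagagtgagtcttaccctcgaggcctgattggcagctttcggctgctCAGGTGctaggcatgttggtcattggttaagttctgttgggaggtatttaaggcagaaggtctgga
The other motif searched, AAGGTCA on either strand, which the steroidogenic factor NR5A1 binds, was present in 1 of 9 promoters of the steroidogenesis list, that of Akr1b7, and in 4.72% of all promoters read.

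**Figure D3:**
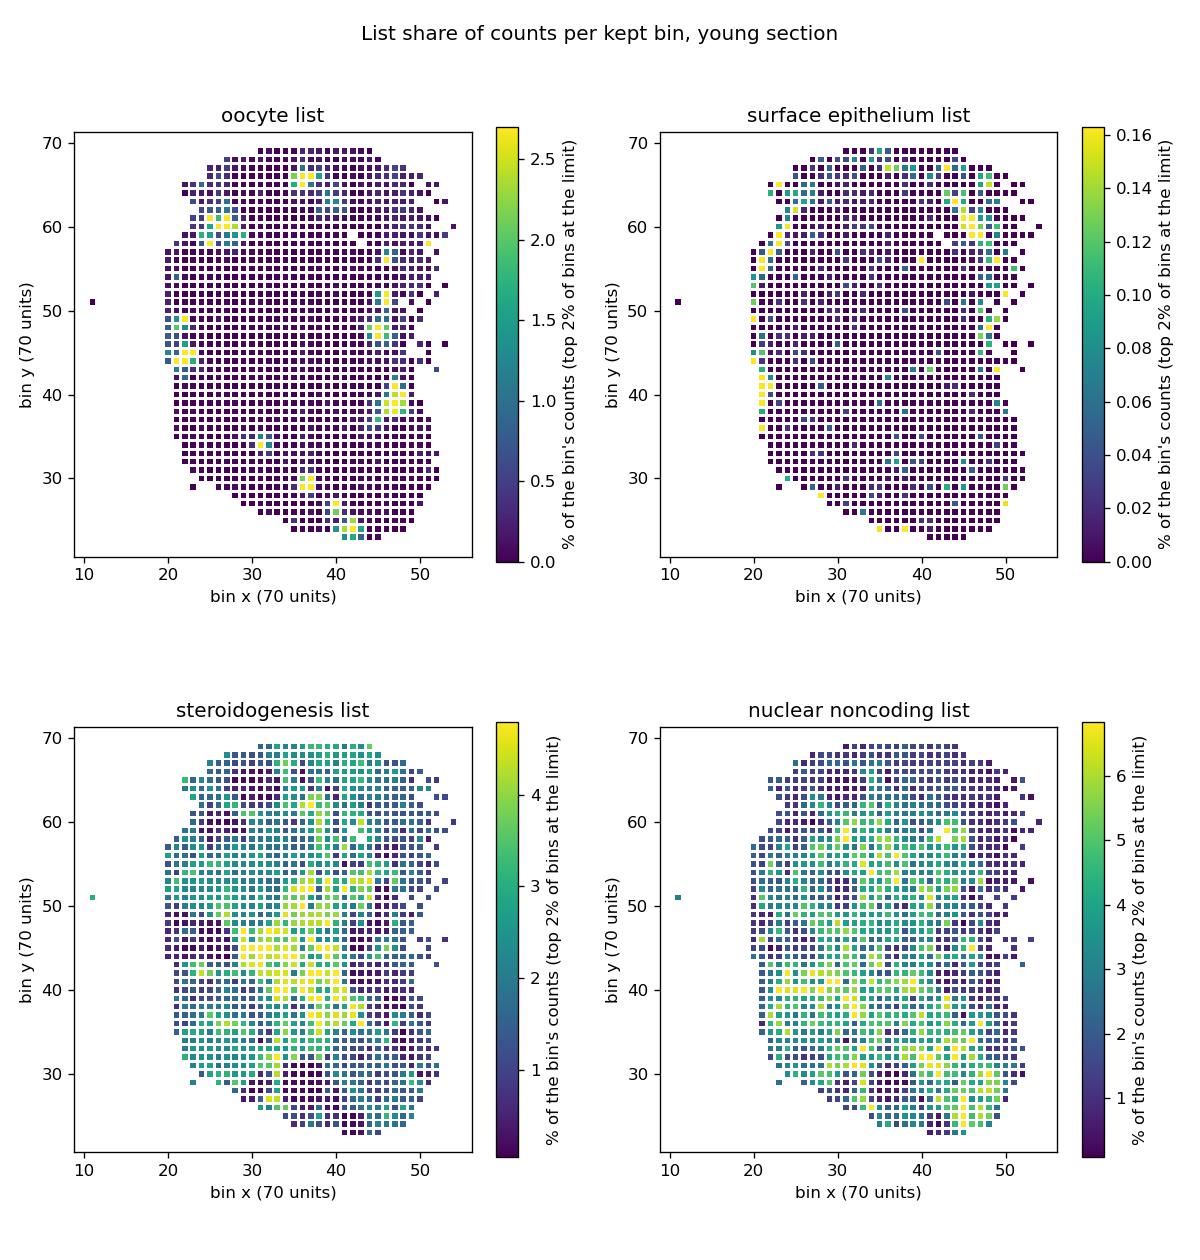
Share of each kept bin's counts, in percent, taken by the oocyte, surface epithelium, steroidogenesis and nuclear noncoding lists, by bin x and bin y. Oocyte counts sit in separate spots, with 1 pair at a shorter distance from the centre than the rest. Surface epithelium counts line the flanks and the high-y end, and the other 2 lists are strongest inside.

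Granulosa genes did not differ between the zones as a list, and their members split. The list had 12153 CPM in outer and 12092 in inner bins, a ratio of 1.01 (0.985 to 1.03), yet the quadrants ran from 0.450 in low x, high y to 5.88 in low x, low y. Of 16 members with enough counts 5 were higher and 1 was lower, beside 8.4% and 5.21% of all genes, and the members' median ratio was 1.21. Kctd14, named for a domain of potassium channels, had 507, 729, 1461 and 756 CPM in outer bins, against 996, 347, 84.0 and 158 CPM in inner bins, and a ratio of 2.63 (2.39 to 2.90). Ihh, a hedgehog ligand sent to theca cells, was at 2.02 (1.51 to 2.72) and Ccnd2, the granulosa D-type cyclin, at 1.88 (1.65 to 2.15). Inhba, an activin subunit, had 167, 179, 406 and 5187 CPM in outer bins, against 142, 81.4, 6044 and 194 CPM in inner bins. Inhba thus lay almost wholly in 1 outer and 1 inner quadrant, and its ratio of 0.603 turned to 14.5 without the low x, high y quadrant. Gja1, a connexin and the member with most counts, was at 0.866 (0.836 to 0.898).

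Cell division genes were higher in outer bins. Of 17 members with enough counts 14 passed 1.5-fold upward and none downward, with a median ratio of 1.73, beside 8.4% and 1.04 for all genes. The list had 2182 CPM in outer, 1444 in middle and 1223 in inner bins, a ratio of 1.78 (1.69 to 1.89). By quadrant outer bins had 1139, 2065, 2535 and 2440 CPM, against 1219, 2052, 977 and 725 CPM in inner bins. The difference therefore came from the low-x quadrants, while the high-x ones stood at 0.934 and 1.01. Ube2c, a mitotic ubiquitin enzyme, was at 2.26 (1.59 to 3.26) and Mcm2, a replication helicase subunit, at 1.79 (1.59 to 2.01). Pcna, the replication clamp, stood at 1.14 (0.888 to 1.45), inside the 1.5-fold limit. Oocyte genes were higher in the same outer zone, and their part in the division genes' difference was not tested.

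Steroid-forming genes were lower in outer than in inner bins over whole zones and in 3 of the 4 quadrants, and the list stood at 1.02 in the high x, high y one. Of its 10 genes 7 had enough counts, and all 7 were at least 1.5-fold lower, with a median of 0.601, beside 5.21% and 1.04 for all genes. The list had 13548 CPM in outer, 16643 in middle and 23347 in inner bins, a ratio of 0.580 (0.571 to 0.590). Of the 131 bins richest in it, 3 were outer, 19 middle and 109 inner. Hsd3b1, which makes progesterone from pregnenolone, had 13957, 6290, 7734 and 12059 CPM in outer bins of the 4 quadrants, against 13782, 12894, 16775 and 16565 CPM in inner bins. Cyp11a1, which cuts the cholesterol side chain, had 4908, 2858, 2224 and 2200 CPM in outer bins, against 5125, 5189, 5205 and 8519 CPM in inner bins. Both genes were near equal in the high x, high y quadrant and lower in outer bins of the other 3, and their ratios were 0.616 (0.604 to 0.629) and 0.483 (0.466 to 0.501). Star had 182, 128, 82.5 and 55.8 CPM in outer bins, against 226, 202, 254 and 456 CPM in inner bins, lower in each quadrant. Fdxr, the reductase that feeds electrons to these enzymes, stood at 0.628, Hsd17b7 at 0.597 and Nr5a1, a nuclear receptor that controls them, at 0.653.

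The retinoid metabolism list had a ratio of 0.512 (0.499 to 0.526). Of its 12 genes 5 had enough counts, and 3 of the 5 were at least 1.5-fold lower, beside 5.21% of all genes, and none higher. Aldh1a1, which makes retinoic acid and holds most counts of its list, had 9889, 2372, 4405 and 3282 CPM in outer bins, against 9583, 10496, 6541 and 11894 CPM in inner bins, and a ratio of 0.503 (0.489 to 0.517). Its outer level was again close to the inner one in the high x, high y quadrant and below it elsewhere. Without Aldh1a1 the list was at 0.605 (0.557 to 0.656). Aldh1a2, which catalyses the same step, did not pass 1.5-fold, at 0.813 (0.680 to 0.972). Cholesterol synthesis genes were lower in outer bins of all 4 quadrants, at 711, 806, 808 and 1152 CPM, against 1094, 1079, 1346 and 1249 CPM in inner bins, with a list ratio of 0.717 (0.668 to 0.768). Past 1.5-fold were 4 of 10 members with enough counts downward, beside 5.21% of all genes, and none upward. They included Msmo1, a late enzyme of the pathway, at 0.553.

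All 7 luteal genes with enough counts were also at least 1.5-fold lower over whole zones, beside 5.21% of all genes, but their quadrants disagreed. Their median ratio was 0.444, and that of all genes 1.04. The list had 1930, 3773, 1072 and 1955 CPM in outer bins, against 1766, 1266, 6674 and 3838 CPM in inner bins. Outer bins were higher in the high-x quadrants and lower in the low-x ones. In 6 rings of equal bin number, from the centre outward, the list had 2463, 4933, 5070, 2391, 1703 and 2510 CPM. The list was thus highest in rings 2 and 3, with ring 1 and ring 6 near equal. Its ratio of 0.532 (0.510 to 0.555) was 1.20 without the low x, high y quadrant and 0.334 without the high x, low y one. Sfrp4, a secreted Wnt binder, ranged from 338 to 2188 CPM over the outer quadrants and from 208 to 2932 CPM over the inner ones. Akr1c18, which inactivates progesterone, was at 0.410 over whole zones, and at 1.67 without the low x, high y quadrant. Theca genes stood at 0.747 (0.645 to 0.864) as a list, with Cyp17a1, the androgen-forming enzyme, at 0.539 (0.436 to 0.664) and the hedgehog receptor gene Ptch1 at 0.920 (0.679 to 1.24). Without Cyp17a1, its member with most counts, the theca list was at 1.06 (0.855 to 1.31), so the list's direction rested on that gene.

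Red blood cell genes, which in tissue mark blood inside vessels, had the lowest outer/inner ratio of any gene list. They had 242 CPM in outer, 567 in middle and 996 in inner bins, a ratio of 0.243 (0.217 to 0.272). By quadrant outer bins had 216, 219, 244 and 282 CPM, against 1146, 1416, 281 and 1702 CPM in inner bins. The outer level was similar between quadrants, and the low x, high y inner quadrant was the only inner one without a high level. Within the zones the counts were patchy, as the 5 richest bins held 37.3% of the outer and 26.4% of the inner ones. From ring 1 at the centre to ring 6, rings of equal bin number had 1468, 594, 557, 578, 306 and 143 CPM. With the outer and inner 20% of bins the ratio was 0.133. Hbb-bs, a beta globin gene, stood at 0.240 (0.208 to 0.276) and Hba-a1, an alpha globin gene, at 0.217 (0.157 to 0.294).

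Vessel wall genes differed less, with a few exceptions. Blood endothelium genes had 262 CPM in outer and 340 in inner bins, a ratio of 0.770 (0.676 to 0.877), and none of the 3 members with enough counts passed 1.5-fold. Their median ratio was 1.15, beside 1.04 for all genes, with Egfl7 and Esam above 1 and Cldn5 below it. Picked after its values were seen, Plvap, a protein of the diaphragms of leaky vessels, had 14 outer and 51 inner counts. Pericyte genes were lower in outer bins of all 4 quadrants at 0.711 (0.579 to 0.871), and at 1.02 with the outer and inner 20% of bins. Smooth muscle genes stood at 0.740 (0.699 to 0.783), with Myh11, the smooth muscle myosin heavy chain, at 0.565 (0.493 to 0.646) and Tagln, an actin-binding protein, at 0.966 (0.794 to 1.18).

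The lymphatic list gave a mixed reading. It stood at 1.17 (1.02 to 1.34) with Pdpn, which lymphatic vessels share with other cells, at 2.00 (1.69 to 2.37), and at 0.271 (0.197 to 0.369) without Pdpn, on 54 outer and 185 inner counts. Of the 5 others, picked after their values were seen, Mmrn1, a vessel matrix protein, had 17 outer and 81 inner counts, and Prox1, the master regulator of lymphatic fate, 8 and 36. Flt4, the VEGF-C receptor, had 4 and 22, Lyve1, a hyaluronan receptor, 6 and 21, and Reln, a secreted glycoprotein, 19 and 25. Pdpn had 197, 264, 314 and 226 CPM in outer bins, against 210, 232, 47.5 and 79.0 CPM in inner bins, so that it was higher outside mainly in the low-x quadrants.

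Malat1, a long noncoding RNA kept in the nucleus and the gene with most counts in the 2 zones, was lower in outer bins. It had 12333, 29114, 13163 and 23113 CPM in outer bins of the 4 quadrants, against 29358, 26741, 36251 and 40579 CPM in inner bins, a ratio of 0.566 (0.558 to 0.574). Outer bins were lower in 3 quadrants and slightly higher in high x, low y. Of the other nuclear noncoding RNAs Neat1, the scaffold of paraspeckles, stood at 0.675 (0.609 to 0.747), Kcnq1ot1, an imprinted antisense RNA, at 0.612 (0.519 to 0.720) and Meg3, an imprinted RNA, at 0.701 (0.527 to 0.931). A strand setting is not given in the sources used here, so reads of Kcnq1ot1 and its sense gene cannot be told apart.

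Transcripts of the mitochondrial genome stood at 0.849 (0.835 to 0.863) as a list, and at 0.691 (0.676 to 0.705) without mt-Rnr2, the member with most counts. By depth from the outline the whole list had 26066 CPM up to 1 bin, 19331 up to 2 and 16423 up to 4. It had 15159 CPM up to 8 bins and 20545 deeper, and so was highest next to the outline. Of 9 members with enough counts 3 were at least 1.5-fold lower, beside 5.21% of all genes, and none was higher, with a median ratio of 0.781. The 3 were the respiratory chain mRNAs mt-Nd5, mt-Nd2 and mt-Nd4, lower in outer bins of all 4 quadrants, at 0.576 (0.546 to 0.608), 0.581 (0.548 to 0.616) and 0.651 (0.625 to 0.679). mt-Nd5 had 901, 1433, 1183 and 1659 CPM in outer bins, against 2256, 2459, 1898 and 2703 CPM in inner bins. The ribosomal RNA gene mt-Rnr2 had 14778, 4969, 7157 and 5076 CPM in outer bins, against 6488, 7127, 5351 and 6369 CPM in inner bins, a ratio of 1.20 (1.17 to 1.23), and 0.986 without the high x, high y quadrant. It was higher outside in the high-y quadrants and lower in the low-y ones. The other ribosomal RNA gene, mt-Rnr1, was at 0.710 (0.642 to 0.784). Cytosolic ribosomal protein genes had 23711 CPM in outer, 18624 in middle and 18397 in inner bins, a ratio of 1.29 (1.27 to 1.31), with 11 of 56 members past 1.5-fold upward, beside 8.4% of all genes, and none downward. Their quadrants gave 27834, 19478, 27324 and 18621 CPM in outer bins, against 17990, 22818, 15577 and 19207 CPM in inner bins. Both high-y quadrants were higher outside and both low-y ones were not. The list was taken by name and so also holds kinase genes, such as Rps6ka3 at 0.908 and Rps6kb1 at 0.884. Nuclear respiratory chain genes, taken by name with some assembly factors, stood at 1.15 (1.13 to 1.17). Of them 5 of 84 were at least 1.5-fold higher, no larger a share than the 8.4% of all genes, and none was lower. CPM are shares of a fixed total, so abundant genes enter every other gene's ratio. With mitochondrial, ribosomal protein and haemoglobin genes left out of the total, no named ratio changed side.

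**Figure D4:**
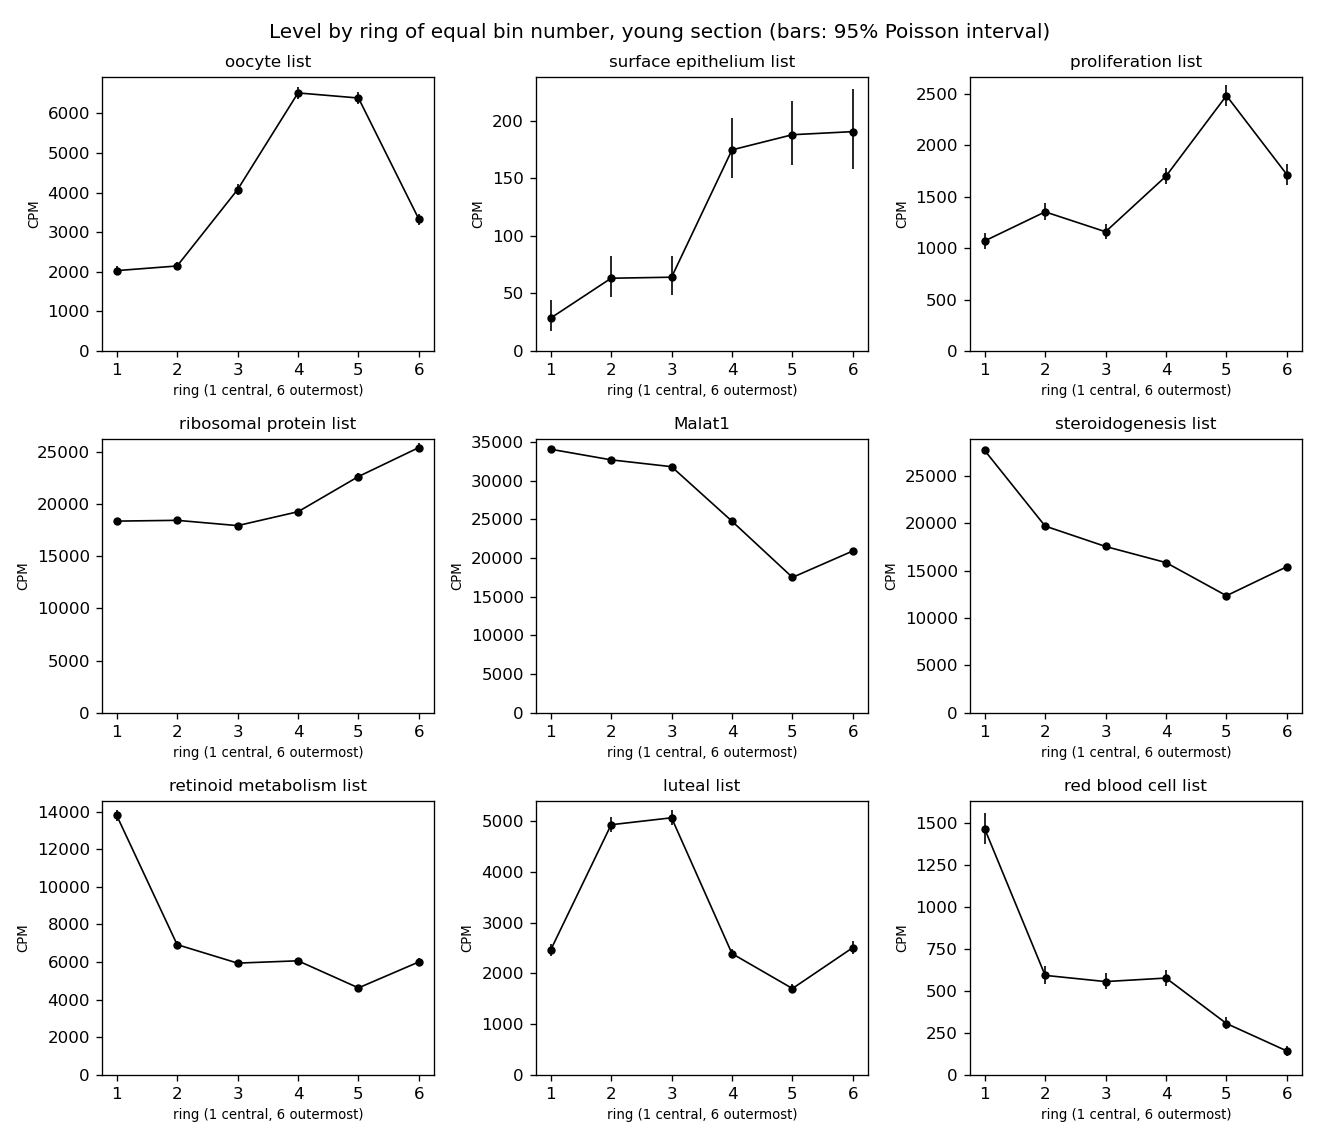
CPM in 6 rings of equal bin number from the centre (ring 1) to the rim (ring 6), with 95% Poisson intervals, for 8 lists and Malat1. Steroidogenesis, retinoid and red blood cell genes are highest in ring 1, and luteal genes in rings 2 and 3. Oocyte genes are highest in rings 4 and 5, and surface epithelium genes in rings 4 to 6.

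The remaining lists with at least 100 counts lay within 1.5-fold and mostly changed side between quadrants. Macrophage genes stood at 1.12 (1.04 to 1.21), with 2539, 1137, 450 and 265 CPM in outer bins, against 977, 557, 599 and 1289 CPM in inner bins, higher outside at high x and lower at low x. Within that list C1qc, a subunit of complement C1q, was at 1.67 (1.19 to 2.37) and C1qa, another subunit, at 0.788 (0.648 to 0.958). Of chemokines and cytokines Mif, an inflammatory cytokine, was higher outside in each quadrant, at 265, 168, 280 and 178 CPM, against 117, 111, 135 and 140 CPM in inner bins, a ratio of 1.82 (1.52 to 2.17). Igf1, the growth factor of granulosa cells, was at 1.57 (1.34 to 1.84), and was the 1 of 8 members of the IGF list that passed 1.5-fold, beside 8.4% of all genes. Stromal fibroblast genes stood at 0.889 (0.827 to 0.956), with Tcf21, a mesenchymal transcription factor, at 1.76 (1.34 to 2.33). Collagen and matrix genes stood at 0.976 (0.944 to 1.01), with 4 of 17 members lower, beside 5.21% of all genes, and none higher. Among those were Loxl2, a collagen crosslinker, at 0.511 (0.410 to 0.634) and Timp3, a protease inhibitor, at 0.571 (0.467 to 0.698). Wnt genes stood at 0.975 (0.925 to 1.03), with 1 of 7 members lower, beside 5.21% of all genes, and none higher. The lower one was Wnt5a, a signal of stroma, at 0.526 (0.393 to 0.701). TGF-beta and BMP genes stood at 0.882 (0.835 to 0.931), with 1 of 12 members lower and 1 higher, beside 5.21% and 8.4% of all genes. Bmp2, a growth factor, was the lower one, at 0.481 (0.328 to 0.697). Genes of the oviduct and rete ovarii, which lie next to the ovary, had 23 outer and 28 inner counts, lymphoid genes 23 and 20, and neutrophil and mast cell genes 7 and 1, too few to describe.

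**Figure D5:**
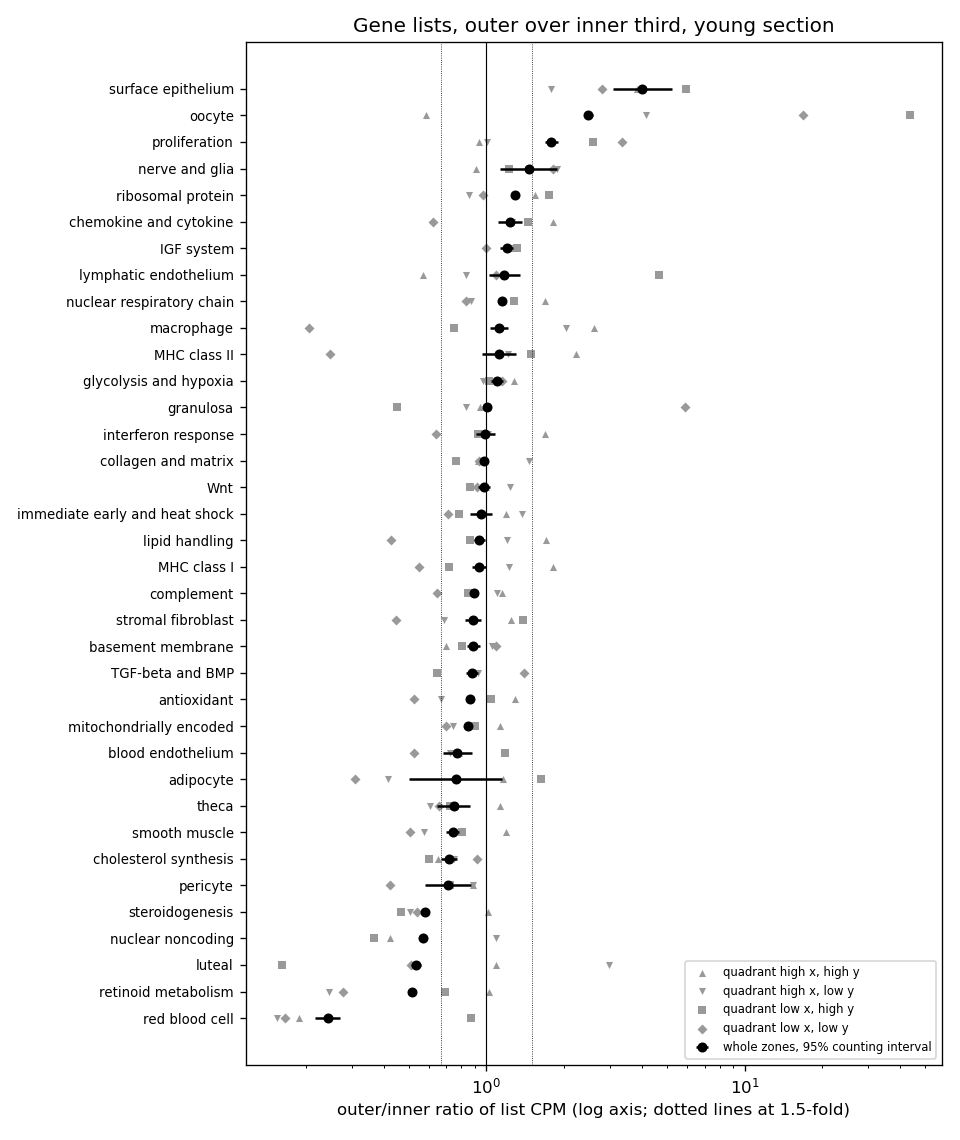
Outer/inner ratio of list CPM on a log axis for the lists with at least 100 counts, with black points and 95% counting intervals for whole zones and grey marks for the 4 quadrants. Surface epithelium, cholesterol synthesis, pericyte and red blood cell lists have all grey marks on one side of 1, and the oocyte, granulosa and luteal lists spread across it.

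The same rule applied to the old section, with 286 outer and 300 inner bins, is given for setting side by side only, since 1 section of each age cannot part age from section. There 371 of 3456 genes (10.7%) were at least 1.5-fold higher and 258 (7.47%) at least 1.5-fold lower in outer bins. The surface epithelium list was at 2.94 in the old section, on 735 outer and 198 inner counts, beside 4.0 in the young one. Steroidogenesis genes were at 0.719 in the old section, retinoid metabolism genes at 0.560 and the nuclear noncoding list at 0.710, all below 1 as in the young section. Oocyte genes were at 0.493 (0.367 to 0.660) in the old section, on 78 outer and 125 inner counts, but 5 bins held 59.2% of those inner counts and the quadrants split 2 and 2. Macrophage genes were at 0.269 (0.239 to 0.301) in the old section, beside 1.12 in the young one. Proliferation genes were at 0.947 (0.853 to 1.05) in the old section, an interval that spans 1, beside 1.78 in the young one.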

How the data were processed

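The deposited files hold whole-number counts per gene and bead barcode for each section, and bead positions, per the file headers; the authors' build was mm10, per the submitters' processing notes, and no aligner, counter, annotation or molecular identifier is given in the sources used here, so intervals are too narrow if counts are reads. The young section held 5158314 counts on 21403 beads and the old one 2348768 on 10267, and the sections shared 0 barcodes. Position units are not stated; the median bead spacing was 12.5 units. Bins of 70 units with at least 500 counts held 98.8% of the young counts. Ties at the outer limit (7 bins) were kept as middle. Counts were summed per zone and divided by the zone total (CPM). Intervals (Clopper-Pearson for ratios, exact Poisson for levels) used Python 3.11.15 and scipy 1.17.1. The ratio calculation was checked on simulated zone totals with set folds, which held no bins or spots, so the check does not cover patchy genes. Genes were named by a rule: from genes that reached 100 counts over both zones and 50 CPM in 1 of them, without mitochondrial, ribosomal protein, haemoglobin and predicted genes, the 15 highest and 15 lowest past 1.5-fold on one side of 1 in all 4 quadrants, plus up to 3 highest, 3 lowest and 2 most abundant members of each of 39 lists. Zones, lists and rule were chosen with earlier results of these data known. Some list members are not reported here. Of 21091 gene names 18061 matched RefSeq. Alternatives were other bin sizes and minimums, other centres, distances and shares, other totals, TMM scaling, equal weight per bin, and leaving out quadrants, the richest bins or a list's top gene.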

Additional observations from a re-analysis of the deposited data

Results flagged for a closer look

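The oocyte list had outer/inner ratios of 0.493 (old section) and 2.48 (young section). With 1 section of each age this difference was not tested. The old section had 78 outer and 125 inner oocyte counts, 5 bins held 59.2% of the inner ones, and its quadrants gave 0.166, 0.534, 1.93 and 1.43.

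Bins with under 500 counts, which enter no zone, had 632 CPM of surface epithelium genes (40 of 63316 counts), above the 189 CPM of outer bins and the 47.2 CPM of inner bins.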

How the results depend on the processing

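These zones describe 1 section, depth limits genes with few counts, and intervals cover counting error only. The count of higher genes, 519 as reported, was 342 with the outer and inner 20% of bins, 254 without the low x, high y quadrant and 937 with genes of at least 50 counts. The count of lower genes, 322 as reported, was 489 by depth from the outline, 188 without the low x, high y quadrant and 566 with genes of at least 50 counts.

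Of 133 ratios recomputed, 99 stayed on one side of 1 in every alternative, and 9 past 1.5-fold turned in at least 1. Only 71 stayed within 1.5 times the reported value in every alternative. With zones cut by depth from the outline, 66 ratios left their counting interval and 65 stayed inside it. Without the low x, high y quadrant Inhba was at 14.5, Sfrp4 at 1.98, Akr1c18 at 1.67, Lgr5 at 1.47, the luteal list at 1.20, Krt8 at 0.915, Zp3 at 0.762 and Zp1 at 0.729. With the outer and inner 20% of bins Sfrp4 was at 1.30, Akr1c18 at 1.22, Zp3 at 0.778 and Zp1 at 0.655. Elliptical distance put Inhba at 1.16 and Cyp17a1 at 1.04, and equal weight per bin put Sfrp4 at 1.12. The causes were not tested. Leaving out each list's member with most counts, added after seeing the data, turned no list that was itself past 1.5-fold. It moved the lymphatic list to 0.271, the adipocyte list to 1.86, on 6 outer and 3 inner counts, the immediate early and heat shock list to 1.09 and the theca list to 1.06, each across 1. No paired analysis was possible because each age has 1 section.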
